A study of Mus musculus with 17 samples.

Results

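The miR-29 family of microRNAs was followed in the mouse embryonic stem cell (ESC) lines D3 and B8 as they differentiated. Its members were taken by name, as every entry called miR-29a, miR-29b or miR-29c, whichever arm or gene copy it came from. This gave 6 of the 1033 mature miRNAs in the deposited table. The family was selected on earlier results of these data, in which miR-29a-3p was lower in B8 at day 7 than at day 0. The family's values in B8, and those of D3 set against B8, are therefore given as a description with no test. Its members are tested only in comparisons between D3 groups, with a spread estimated over all groups, B8 among them.

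MicroRNAs of this family pair through their seed, the bases near the 5′ end, with sites in messenger RNAs and lower the output of those messengers. The best-known targets encode collagens and other extracellular matrix proteins, the DNA methyltransferases Dnmt3a and Dnmt3b, and the Tet enzymes that oxidise methylated cytosine. In many mammalian tissues the family is sparse in stem and progenitor cells and abundant in mature cells.

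The groups were D3 at day 0, day 7 and day 21, then B8 at day 7 and day 0. Day 0 samples were undifferentiated ESCs grown without feeder cells in serum medium with LIF, the cytokine that holds mouse ESCs undifferentiated. Those of day 7 were embryoid bodies, which are cell aggregates made in hanging drops, and those of day 21 had grown out from such bodies. Both later stages had medium lacking LIF with retinoic acid, insulin-transferrin-selenium and N2 supplement. Each group had 3 libraries except D3 at day 7, which had 2, its replicates 2 and 3. The 3 samples labelled B8 at day 21 were not analysed here. Genotype beyond the name of the line is not given in the labels, nor is whether replicates came from separate cultures. P-values therefore rest on the differences among these libraries, which could be technical ones.

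The family's mature sequences show how little separates its members. They are RefSeq entries for mouse assembly GRCm38.p6, found by name for 6 of 6 members, and are written 5′ to 3′ with the seed, bases 2 to 8, in capitals. The 3p arms are shown first because nearly all reads fell on them.
mmu-miR-29a-3p: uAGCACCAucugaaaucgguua
mmu-miR-29b-3p: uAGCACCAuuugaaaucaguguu
mmu-miR-29c-3p: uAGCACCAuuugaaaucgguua
mmu-miR-29a-5p: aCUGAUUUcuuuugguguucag
mmu-miR-29b-2-5p: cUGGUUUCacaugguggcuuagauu
mmu-miR-29c-5p: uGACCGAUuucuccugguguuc
The 3 3p arms share the seed AGCACCA, which no mature mouse miRNA outside the family carries among the 1679 mature RefSeq entries searched. With positions counted from 1 at the 5′ end, miR-29a-3p and miR-29c-3p differ at 1 base, C10U. The step from miR-29c-3p to miR-29b-3p takes G18A, U21G and A22U, and miR-29b-3p is 23 bases long where the other two have 22. The first 17 bases of miR-29c-3p and miR-29b-3p are identical. The rule for counting reads that match several miRNAs is not given in the sources used here, so the split between miR-29a-3p and miR-29c-3p, 1 base apart, is uncertain. The 5p arms share no seed with the 3p arms or with each other.

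The genes lie in 2 pairs, in GENCODE's annotation of GRCm38. Mir29a, at chr6:31062660-31062747, and Mir29b-1, at chr6:31063023-31063093, are on the minus strand of chromosome 6 with 275 bases between their hairpins. Mir29a lies in no other annotated gene, and Mir29b-1 meets the end of an exon of the long noncoding RNA gene Gm27019. Mir29b-2, at chr1:195037040-195037120, and Mir29c, at chr1:195037547-195037634, are on the plus strand of chromosome 1 with 426 bases between them. Both lie in an exon of the noncoding gene A330023F24Rik on the same strand and overlap an exon of Cd46 on the opposite one. The mature miR-29b-3p is the same from both loci, so its reads cannot be assigned to either. The hairpins of the chromosome 6 pair are shown because their 3p arms, in capitals, are the most abundant member and one source of the member that was at 0 at day 7.
Mir29a: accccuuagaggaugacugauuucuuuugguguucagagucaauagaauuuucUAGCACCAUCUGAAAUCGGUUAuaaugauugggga
Mir29b-1: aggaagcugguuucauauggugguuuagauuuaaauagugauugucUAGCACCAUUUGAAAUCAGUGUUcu

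The deposited values are reads divided by a factor for each library, and whole reads could be recovered from them. The D3 libraries held 56377 to 129486 recovered miRNA reads at day 0, 1008438 to 1060306 at day 7 and 547213 to 743039 at day 21. The B8 libraries held 141823 to 256613 at day 7 and 138397 to 275271 at day 0. Column totals of the deposited values differed up to 17.7-fold between libraries, so each result is given on the deposited scale and on a relative scale, set by median-of-ratios factors from 319 miRNAs found in every library. On the deposited scale the median kept miRNA shifted by a log2 of 2.25 in D3 at day 7 against day 0, by 1.69 at day 21 against day 0 and by -0.60 at day 21 against day 7. On the relative scale these shifts were 0.27, 0.43 and 0.02. Reads per 1000000 miRNA reads (RPM) are given as a further scale where they add to these. RPM and shares of the signal are fractions of the column total, which miR-10a and miR-10b dominated in D3 at day 7. Those totals were 830402 and 721724 with these miRNAs, and 272434 and 263935 without them. In replicate 1 of D3 at day 0 the total was 62841 with them and 62790 without. In replicate 1 of B8 at day 7 it was 184572 and 107106. The ESC label was checked with 8 ESC miRNAs, which in D3 took 12.7% to 15.2% of the signal at day 0, 0.411% to 0.428% at day 7 and 0.791% to 0.813% at day 21. In B8 they took 1.97% to 5.08% at day 7 and 15.8% to 17.2% at day 0. These shares are sums, and single ESC miRNAs went both ways. In D3 at day 21 against day 0, 3 of the 8 were called higher and 5 lower on both scales (limma adjusted p under 0.05). Over all tested miRNAs, 65.3% were called higher and 10.2% lower as deposited, and 38% higher and 25% lower in relative values. These are bulk samples, in which fewer cells of a type and less RNA per cell cannot be told apart.

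Of the 6 members, the 3p arms miR-29a-3p, miR-29b-3p and miR-29c-3p passed the filter on low values, set at 5 or more per 1000000 as an average over all libraries. The 3 5p arms did not pass. A test across all 521 kept miRNAs called those with an adjusted p under 0.05, from limma with Benjamini-Hochberg adjustment.

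mmu-miR-29a-3p was the main member in every library, and in D3 it was higher at day 21 than at either earlier stage. Its deposited values were 9.32, 8.62 and 9.16 in the D3 libraries of day 0, 26.6 and 18.6 at day 7, and 69.1, 89.7 and 142.4 at day 21. The day 21 libraries were all above the day 7 libraries, which were all above those of day 0, and no groups overlapped. Means were 9.03 ± 0.363 at day 0 (SD, n = 3), 22.6 ± 5.67 at day 7 (SD, n = 2) and 100.4 ± 37.8 at day 21 (SD, n = 3). They rested on 45, 60 and 870 reads.

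With relative values the order of the first 2 stages was turned round. The relative values of miR-29a-3p were 18.6, 15.2 and 24.0 in the D3 libraries of day 0, 11.3 and 7.94 at day 7, and 55.8, 64.0 and 87.2 at day 21. Here day 7 was the lowest group, day 0 lay above it and day 21 was the highest, again without overlap. In RPM the group means were 155.6 ± 36.3 at day 0, 28.9 ± 4.44 at day 7 and 431 ± 64.7 at day 21 (SD). Ranked by these means among all 1033 miRNAs, miR-29a-3p stood at place 198 at day 0, 258 at day 7 and 149 at day 21.

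The rise to day 21 was called on both scales. Against day 7, miR-29a-3p at day 21 was higher by a log2 of 2.08 ± 0.331 (SE), or 4.24-fold, on the deposited scale (limma adjusted p = 2.85e-05). The same difference was 2.79 ± 0.278, or 6.93-fold, on the relative scale (limma adjusted p = 1.57e-06). In this comparison 8.06% of all tested miRNAs were called higher on the deposited scale and 16.1% on the relative scale. Against day 0, miR-29a-3p at day 21 was higher by a log2 of 3.34 ± 0.296, or 10.1-fold, on the deposited scale (limma adjusted p = 2.77e-10). The relative difference was 1.82 ± 0.249, or 3.53-fold (limma adjusted p = 6.80e-06). Calls for higher values were common in this comparison, at 65.3% of tested miRNAs on the deposited scale and 38% on the relative scale.

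The step from day 0 to day 7 had no direction common to the scales. On the deposited scale miR-29a-3p was higher at day 7 than at day 0 by a log2 of 1.26 ± 0.331 (limma adjusted p = 0.00147), whereas its relative value was lower, with a log2 of -0.97 ± 0.278 (limma adjusted p = 0.00609). The deposited log2 of 1.26 lay under the median shift of 2.25 for all kept miRNAs, and the relative value also lay under its median of 0.27. On the deposited scale 70.4% of tested miRNAs were called higher in this comparison and 6.91% lower. The relative scale gave 36.1% higher and 26.9% lower.

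**Figure D1:**
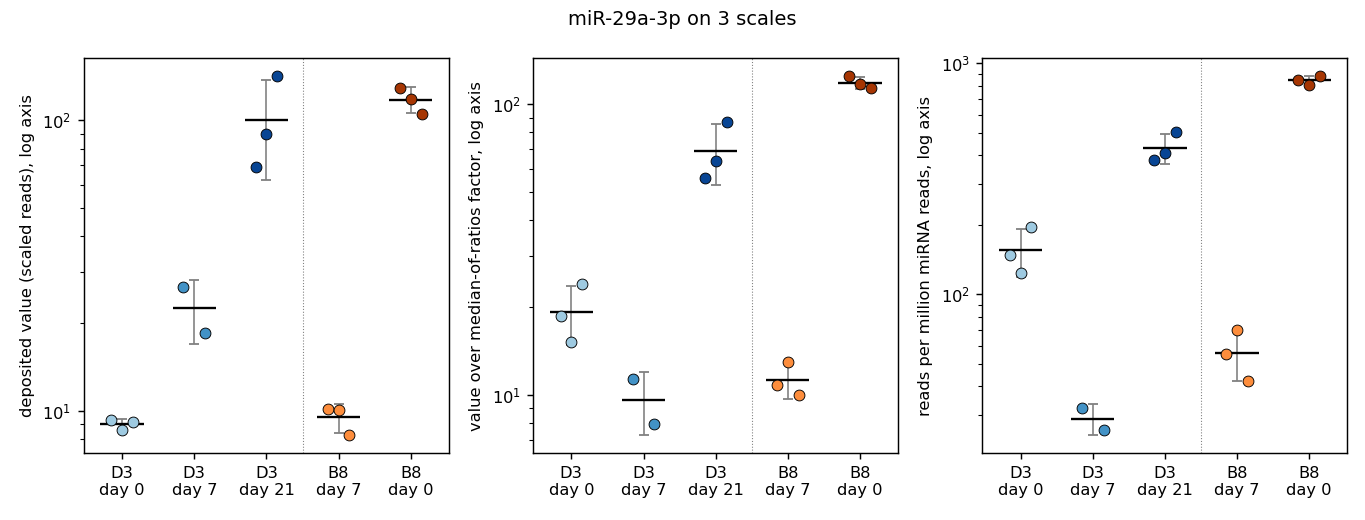
miR-29a-3p in each library on 3 scales (log axes): deposited values, values over median-of-ratios factors, and reads per 1000000 miRNA reads. Points are libraries, black lines group means and grey bars SD. D3 at day 21 stands above D3 at day 7 and day 0 in each panel, whereas D3 at day 7 stands above day 0 on the deposited scale only.

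In B8, miR-29a-3p was lower at day 7 than at day 0, the difference for which it was chosen. Its deposited values were 10.2, 10.1 and 8.23 in B8 at day 7, against 129.7, 119 and 105 in B8 at day 0. Every day 7 library lay far below every day 0 library. The means were 9.50 ± 1.10 at day 7 and 118 ± 12.1 at day 0 (SD, n = 3 each), resting on 37 and 558 reads. The mean at day 7 was 12.4-fold lower than at day 0 on the deposited scale, 10.6-fold lower on the relative scale and 15.1-fold lower in RPM. These values chose the family and are not tested. Across all tested miRNAs, 28% were called lower in this comparison on the deposited scale and 25.7% on the relative scale.

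The lines stood far apart as ESCs. miR-29a-3p averaged 9.03 ± 0.363 in D3 at day 0 and 118 ± 12.1 in B8 at day 0 on the deposited scale (SD, n = 3 each). No D3 library reached a B8 library on any of the 3 scales. The D3 mean was 13.1-fold lower than the B8 mean on the deposited scale, 6.16-fold lower on the relative scale and 5.42-fold lower in RPM. At day 7 miR-29a-3p was higher in D3 than in B8 on the deposited scale, with means of 22.6 ± 5.67 and 9.50 ± 1.10 and no overlap, but lower in D3 on the relative scale, with means of 9.62 ± 2.38 and 11.2 ± 1.57 and overlapping libraries. In RPM the D3 libraries at day 7 were all lower, with a mean of 28.9 ± 4.44 against 55.9 ± 13.9 in B8. Fitted log2 values of D3 against B8 at day 7 were 1.2 deposited and -0.23 relative. The medians over all kept miRNAs there were higher, at 1.71 and 0.39. At day 0 the fitted values were -3.63 deposited and -2.62 relative, beside medians of -0.90 and -0.13.

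Across all 5 groups, the order of miR-29a-3p from high to low on the deposited scale was B8 at day 0, D3 at day 21, D3 at day 7, B8 at day 7 and D3 at day 0. The first pair overlapped, as did the last pair. The relative order was B8 at day 0, D3 at day 21, D3 at day 0, B8 at day 7 and D3 at day 7, and there the last pair overlapped. Relative values averaged 69.0 ± 16.3 in D3 at day 21 and 118.7 ± 5.93 in B8 at day 0 (SD, n = 3 each), without overlap.

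**Figure D2:**
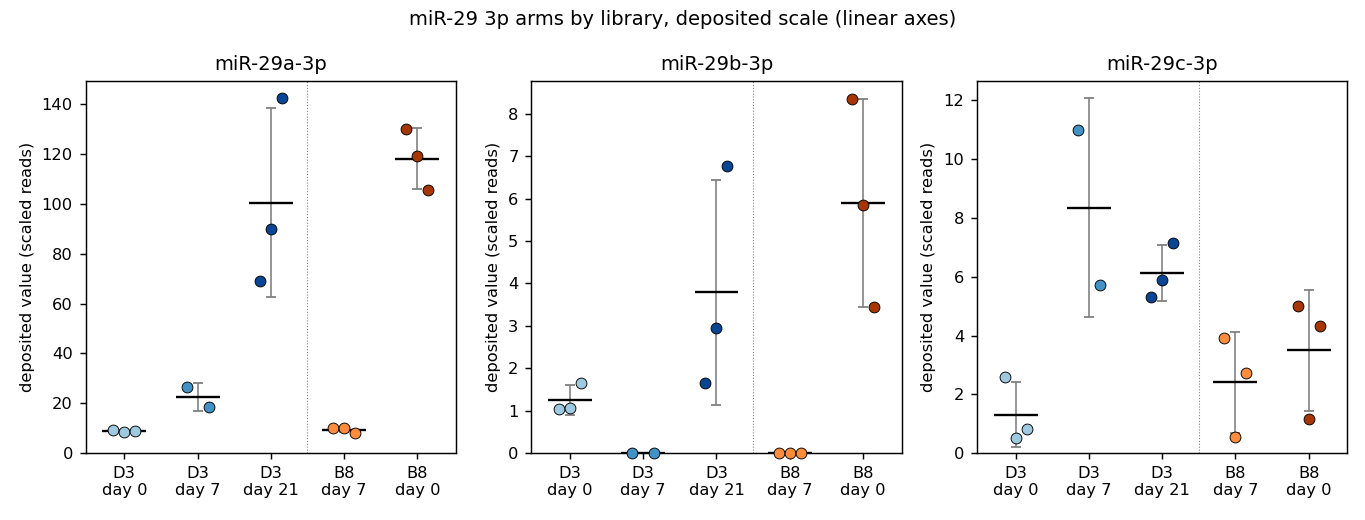
Deposited values of the 3 miR-29 3p arms in each library (linear axes from 0, a different range in each panel). Points are libraries, black lines group means and grey bars SD. miR-29b-3p sits at 0 in every day 7 library of D3 and B8, and miR-29a-3p is highest in B8 at day 0 and D3 at day 21.

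mmu-miR-29b-3p shares its seed with miR-29a-3p and differs from it at C10U, G18A, U21G and A22U. It had no read in any day 7 library of either line. In D3 its deposited values were 1.04, 1.08 and 1.67 at day 0, 0 and 0 at day 7, and 1.66, 2.95 and 6.76 at day 21. The day 0 libraries held 2 reads each, and the day 21 libraries held 5, 10 and 17. The day 7 libraries lay below all others, while those of day 0 and day 21 overlapped.

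The D3 libraries of day 7 were the deepest of those analysed. A count of 0 there allows up to 2.83 and 2.97 RPM, counting error only, against 16.5, 15.4 and 35.5 RPM in the D3 libraries of day 0. With 0 reads in all at day 7 and 6 at day 0, both groups were under the floor of 3 reads per library, and no fold is given. The counting interval (95%) of the pooled ratio of day 7 over day 0 reached up to 0.126 in RPM, 0.335 on the relative scale and 1.58 on the deposited scale. The comparison of day 7 with day 0 was called on both scales (limma adjusted p = 0.0095 deposited and 0.00041 relative). The deposited call was lost with a larger pseudocount (limma adjusted p = 0.0851) and with edgeR's quasi-likelihood test on the recovered reads (adjusted p = 0.0529).

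With day 7 set to its floor, miR-29b-3p in D3 at day 21 was at least 1.69-fold higher than at day 7 on the deposited scale, at least 2.64-fold on the relative scale and at least 5.34-fold in RPM. Without replicate 3 of D3 at day 21, which had the most reads, these bounds were 1.03, 1.80 and 3.89. This difference was called on both scales (limma adjusted p = 0.000559 deposited and 0.00238 relative). Against day 0, miR-29b-3p at day 21 did not pass the test, with a log2 of 1.13 ± 0.554 on the deposited scale (limma adjusted p = 0.0665) and a relative log2 of -0.15 (limma adjusted p = 0.821). Leaving out replicate 1 of D3 at day 21 brought the deposited p to 0.0263 (limma, adjusted).

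In B8, miR-29b-3p had 0, 0 and 0 reads at day 7, against 15, 10 and 4 reads at day 0. The deposited values were 0 in all day 7 libraries, against 8.35, 5.85 and 3.46 at day 0. Those zeros allow 11.7 to 21.2 RPM, and the day 0 libraries held 28.9 to 54.5. Against the floor of 3 reads per library, miR-29b-3p was at least 2.17-fold lower at day 7 than at day 0 on the deposited scale and at least 1.82-fold lower on the relative scale. As ESCs, D3 averaged 1.26 ± 0.353 and B8 5.89 ± 2.45 on the deposited scale (SD, n = 3 each), with every D3 library below every B8 library. The D3 mean rested on 6 reads and was under its floor of 1.89, so no fold of means is given. The deposited ratio of D3 over B8, pooled over libraries, was 0.193, with a counting interval (95%) of 0.0656 to 0.474. The fitted deposited log2 of D3 against B8 at day 0 was -1.81, beside a median of -0.90 over all kept miRNAs. The libraries overlapped on the relative scale, with means of 2.78 ± 1.38 in D3 and 5.85 ± 2.17 in B8. They also overlapped in RPM, with 22.5 ± 11.3 in D3 and 41.0 ± 12.8 in B8.

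mmu-miR-29c-3p differs from miR-29a-3p by C10U alone, and none of its D3 comparisons was called on the relative scale. Its deposited values were 2.59, 0.539 and 0.833 in the D3 libraries of day 0, 10.96 and 5.73 at day 7, and 5.31, 5.90 and 7.16 at day 21. The day 0 libraries were the lowest and overlapped neither later stage, while day 7 and day 21 overlapped. They rested on 7, 22 and 54 reads per group. Relative group means were 2.77 ± 2.17, 3.55 ± 1.56 and 4.30 ± 0.0873 in that order (SD), and day 0 overlapped both later stages.

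As deposited, miR-29c-3p was called higher at day 7 than at day 0, with a log2 of 2.40 ± 0.654 (limma adjusted p = 0.00203), and at day 21 than at day 0, with 2.03 ± 0.585 (limma adjusted p = 0.00312). Neither was called on the relative scale, where the log2 values were 0.51 ± 0.738 (limma adjusted p = 0.594) and 0.82 ± 0.660 (limma adjusted p = 0.295). These deposited changes were near the median shifts of all kept miRNAs, 2.25 and 1.69. The difference at day 21 against day 7 was -0.36 ± 0.654 on the deposited scale (limma adjusted p = 0.702), and the relative one was 0.31 (limma adjusted p = 0.804).

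In B8, miR-29c-3p had deposited values of 3.92, 0.559 and 2.74 at day 7, against 5.01, 1.17 and 4.32 at day 0. The groups overlapped, and the means of 2.41 ± 1.71 and 3.50 ± 2.05 (SD, n = 3 each) rested on 8 and 16 reads. At day 7 the deposited values of miR-29c-3p were higher in D3 than in B8, with means of 8.34 ± 3.70 and 2.41 ± 1.71 and no overlap, but the libraries overlapped on the relative scale, with 3.55 ± 1.56 and 2.73 ± 1.79, and in RPM the D3 mean was the lower, with 10.6 ± 3.73 and 13.1 ± 8.71 and overlap. The fitted deposited log2 of D3 against B8 at day 7 was 1.78, near the median of 1.71 over all kept miRNAs. At day 0 the D3 and B8 libraries overlapped on all 3 scales, with deposited means of 1.32 ± 1.11 in D3 and 3.50 ± 2.05 in B8.

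Where miR-29a-3p differed about 12.4-fold between the B8 libraries of day 7 and day 0, the ratio of miR-29c-3p at day 7 over day 0, pooled over libraries, was 0.615, with a counting interval (95%) of 0.228 to 1.52. In relative values every pair of neighbouring groups of miR-29c-3p in the order of all 5 overlapped, and the means ran from 2.73 in B8 at day 7 to 4.30 in D3 at day 21.

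**Figure D3:**
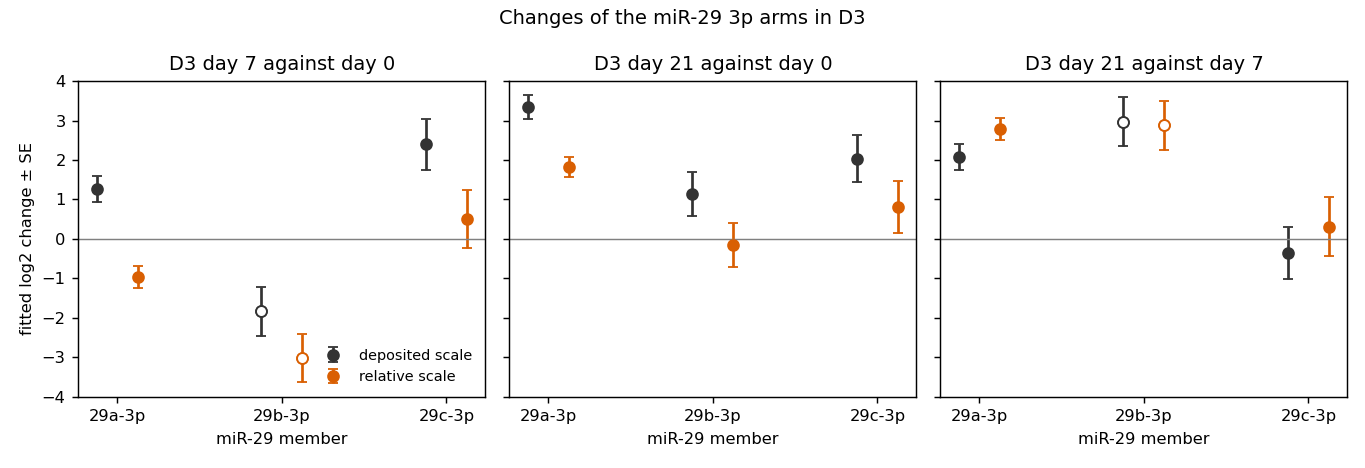
Fitted log2 changes of the 3 miR-29 3p arms in D3 (± SE) on the deposited scale (dark) and the relative scale (orange), with 0 marked. Open points have a day 7 group at 0 and depend on the pseudocount, so they are not folds. miR-29a-3p at day 21 is above 0 on both scales against either earlier stage, and at day 7 against day 0 its 2 values lie on opposite sides of 0.

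The opposite arms were close to absent. Over all libraries the 5p arms had 8 reads against 1744 on the 3p arms, a share of 0.457% (exact 95% binomial interval 0.197% to 0.898%). miR-29b-2-5p, the arm that only the chromosome 1 copy can give, had 3 reads in replicate 1 and 2 reads in replicate 3 of D3 at day 21. miR-29a-5p had 1 read in replicate 3 of D3 at day 21 and 1 in replicate 2 of B8 at day 0, and miR-29c-5p had 1 read in replicate 2 of D3 at day 21. With 1 to 3 reads no difference between groups could be detected for these arms. The 5p arm of Mir29b-1 has no entry among the values used here.

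The make-up of the family does not depend on the factor of a library, since the factor divides out. miR-29a-3p took 78.3% ± 6.11 of the family's 3p reads in D3 at day 0 (SD, n = 3), 73.7% ± 3.99 at day 7 (SD, n = 2) and 91.0% ± 0.136 at day 21 (SD, n = 3). miR-29b-3p took 10.9% ± 3.16, 0% and 3.17% ± 1.08 at these stages, and miR-29c-3p took 10.8% ± 8.02, 26.3% ± 3.99 and 5.85% ± 1.21. The miR-29a-3p share in every day 21 library was above that in every earlier D3 library. The 0 for miR-29b-3p at day 7 allows a share of up to 7.40% in replicate 2 and 10.3% in replicate 3 (exact binomial, 95%).

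The tests of these shares could not reach an adjusted p of 0.05. For D3 at day 21 against day 0, the exact permutation test (two-sided) gave p = 0.1 for miR-29a-3p and for miR-29b-3p and p = 0.4 for miR-29c-3p, where 0.1 is the smallest value that 3 against 3 libraries allow. Each share at day 21 against day 7 gave p = 0.2, the smallest possible for that exact test. At day 7 against day 0 the exact values were 0.4 for miR-29a-3p and 0.2, the smallest possible, for the other two. Over these 9 comparisons the Benjamini-Hochberg adjusted values of the exact tests were 0.257 or 0.4.

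B8 gave shares of the same kind. miR-29a-3p took 80.7% ± 12.3 of the 3p reads in B8 at day 7 and 92.7% ± 1.91 at day 0 (SD, n = 3 each). miR-29b-3p took 0% at day 7 and 4.51% ± 1.40 at day 0, and miR-29c-3p took 19.3% ± 12.3 at day 7 and 2.75% ± 1.58 at day 0. The day 7 shares rest on 45 reads in all, and replicate 2, with 94.7% miR-29a-3p, lay above the range of the day 0 libraries.

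**Figure D4:**
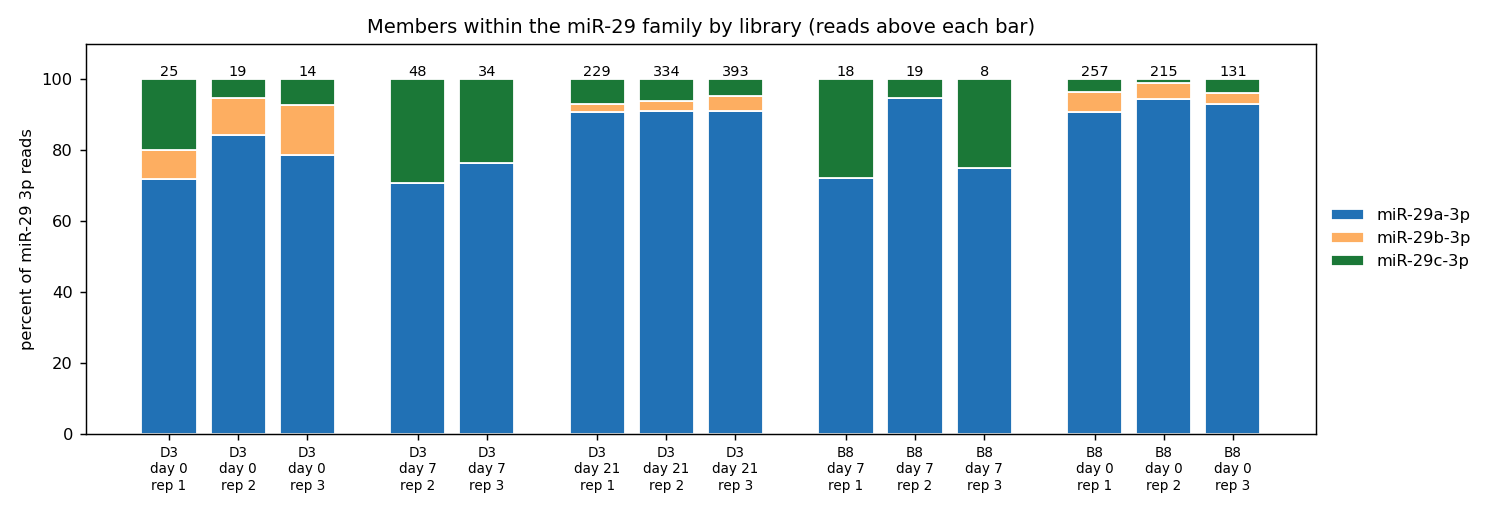
Share of the family's 3p reads taken by each member in each library (percent, stacked from 0), with the number of 3p reads above each bar. miR-29b-3p has no segment in any day 7 library, and in D3 at day 21 miR-29a-3p takes 91.0% with little spread between libraries.

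The miRNAs with the most similar course were found by distance, the root mean square difference of centred log2 group means on the relative scale over the 5 groups. For miR-29a-3p the nearest was miR-21a-5p, a miRNA known for high levels in fibroblasts and injured tissue, at 0.71. It was followed by miR-24-2-5p at 0.74, miR-409-5p at 0.75, miR-148a-5p at 0.81 and miR-302d-3p at 0.83. The median over all other kept miRNAs was 1.70. miR-302d-3p is 1 of the 8 ESC miRNAs, and in D3 its relative mean was 120 at day 0 and 234 at day 21. The relative means of miR-21a-5p were 632.8, 528.7 and 2374 in D3 at day 0, day 7 and day 21, and 350.1 and 1425 in B8 at day 7 and day 0. Its high groups were thus D3 at day 21 and B8 at day 0, as for miR-29a-3p, in the other order. For miR-29c-3p, whose course was nearly flat, the nearest were miR-30e-5p at 0.15, miR-151-5p at 0.15, miR-186-5p at 0.17, miR-222-3p at 0.19 and miR-674-3p at 0.20, with a median of 0.99 over all others.

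Other miRNAs known to act on DNA methylation, through Dnmt or Tet messengers or through Rbl2, went both ways in D3, like all tested miRNAs. In both D3 comparisons with day 0, the part of this list called higher was near that of all tested miRNAs. Of its 11 miRNAs, all kept, 8 rose and 3 fell at day 21 against day 0 on the deposited scale. On the relative scale 5 rose and 3 fell. Over all tested miRNAs, 65.3% were called higher and 10.2% lower as deposited in this comparison, and 38% higher and 25% lower in relative values. The median log2 on the relative scale was 0.30, beside 0.43 over all kept miRNAs. miR-26a-5p, known to target Tet messengers, was higher at day 21 by a relative log2 of 2.64 and miR-22-3p, another such miRNA, by 1.73. miR-295-3p, of the ESC cluster that acts on Rbl2, fell by 4.31 on the relative log2 scale. miR-152-3p, known to target Dnmt1, had relative means of 0 at day 0, 5.69 at day 7 and 16.5 at day 21. At day 7 against day 0 in D3, 8 rose and 2 fell on the deposited scale, and 4 rose and 4 fell on the relative scale, where 70.4% and 6.91% of all tested miRNAs were called higher and lower as deposited and 36.1% and 26.9% in relative values. For day 21 against day 7 in D3, 2 rose and 3 fell on the deposited scale, and 4 rose and none fell on the relative scale. Among all tested miRNAs, 8.06% were called higher and 31.5% lower there as deposited, and 16.1% higher and 10.4% lower in relative values.

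In B8 most of this list fell. At day 7 against day 0, none rose and 7 of 11 fell on the deposited scale, and 1 rose and 7 fell on the relative scale, with median log2 values of -0.88 and -0.65. Over all tested miRNAs, 21.9% were called higher and 28% lower as deposited, and 26.9% higher and 25.7% lower in relative values. The medians over all kept miRNAs were -0.21 and -0.06. miR-22-3p had a relative log2 of -0.91 and miR-295-3p of -2.22, while miR-26a-5p was higher by 0.80.

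miRNAs known to act on extracellular matrix and fibrosis, the other field of miR-29 targets, mostly rose in D3. Of 17 such miRNAs, all kept, 16 rose and none fell at day 21 against day 0 on the deposited scale, and 12 rose and 2 fell on the relative scale. Among all tested miRNAs 65.3% were called higher as deposited and 38% in relative values. The median log2 was 3.55 deposited and 2.01 relative, beside 1.69 and 0.43 over all kept miRNAs. miR-143-3p, a smooth muscle miRNA and the most abundant of the list, was higher by a relative log2 of 4.19 and miR-21a-5p by 1.88. miR-199a-3p, a fibroblast miRNA, was higher by 7.88. Its mature sequence is identical to that of miR-199b-3p, so reads cannot be assigned to either. miR-199a-5p, its partner arm, had relative means of 0.729 at day 0, 103.3 at day 7 and 202.2 at day 21, and miR-214-3p had 0, 195.5 and 132.9. At day 7 against day 0 in D3, 14 rose and none fell on the deposited scale, beside 70.4% of all tested miRNAs called higher, and 10 rose and 4 fell on the relative scale, beside 36.1% higher and 26.9% lower. For day 21 against day 7 in D3, 4 rose and 1 fell on the deposited scale, beside 8.06% and 31.5% over all tested miRNAs, and 11 rose and none fell on the relative scale, beside 16.1% and 10.4%.

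In B8 the same 17 went both ways. At day 7 against day 0, 2 rose and 6 fell on the deposited scale, and 5 rose and 6 fell on the relative scale. miR-143-3p had a relative log2 of -2.10 and miR-21a-5p of -2.08, while miR-214-3p was higher by 2.54. Across all tested miRNAs 21.9% were called higher and 28% lower as deposited, and 26.9% higher and 25.7% lower in relative values.

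Markers of 7 other cell types were summed in each library, and their part in the values of miR-29a-3p was not tested. All 4 mesenchyme miRNAs and all 3 muscle miRNAs rose in D3 at day 21 against day 0 on both scales, where 65.3% of all tested miRNAs were called higher as deposited and 38% in relative values. The mesenchyme miRNAs took 0.182% to 0.231% of the D3 signal at day 0, where miR-214-3p was at 0 in every library, 0.671% to 0.893% at day 7 and 3.85% to 4.92% at day 21. All 4, miR-199a-3p and miR-214-3p among them, are also in the list of 17 matrix miRNAs. The muscle miRNAs took 0% to 0.00165% at day 0, where miR-1a-3p was at 0, 0.00179% to 0.00278% at day 7 and 0.122% to 0.339% at day 21.

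The 4 epithelium miRNAs had their lowest D3 share at day 7, as miR-29a-3p was lowest there in RPM. They took 0.228% to 0.270% of the signal at day 0, 0.0546% to 0.0754% at day 7 and 0.318% to 0.472% at day 21. Their summed relative values were also lower at day 7 (193 to 232) than at day 0 (279 to 332). Their summed deposited values were higher at day 7 (453 to 544) than at day 0 (127 to 166). At day 7 against day 0 in D3, 2 of these 4 were called higher as deposited, beside 70.4% of all tested miRNAs. In relative values 2 were called lower and none higher, beside 26.9% and 36.1%. At day 21 against day 0 in D3, 3 of these 4 were called higher as deposited, and 1 was higher and 1 lower in relative values. The 4 endoderm miRNAs took 0.0791% to 0.120%, 0.0398% to 0.0429% and 0.253% to 0.307% at the same D3 stages. Their calls at day 21 against day 0 were 4 higher as deposited and 3 higher in relative values. Over all tested miRNAs, 65.3% were called higher as deposited in this comparison, and 38% higher and 25% lower in relative values. The 3 neural miRNAs had their highest D3 share at day 7, with 0.00906% to 0.0337%, 1.31% to 1.37% and 0.625% to 0.753% at these stages. The 2 endothelium miRNAs took 0.0905% to 0.106%, 0.196% to 0.223% and 0.232% to 0.372%. The 5 blood miRNAs took 0.0165% to 0.0193% at day 0, where miR-451a and miR-223-3p were at 0 in every library. Their share was 0.000198% to 0.000472% at day 7, where miR-144-3p, miR-451a and miR-223-3p were at 0. At day 21 it was 0.00999% to 0.0143%, with miR-144-3p at 0.

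In B8 the shares of the epithelium, mesenchyme, blood and endothelium miRNAs were lower at day 7 than at day 0, as miR-29a-3p was. Those of the neural miRNAs were higher. The epithelium miRNAs took 0.193% to 0.328% at day 7 and 0.470% to 0.580% at day 0, with 3 of 4 called lower as deposited and 2 in relative values. The mesenchyme miRNAs took 0.331% to 0.891% at day 7 and 1.31% to 1.51% at day 0, with 1 called higher and 2 lower on both scales. The blood miRNAs took 0.00987% to 0.0191% at day 7, with miR-144-3p and miR-451a at 0, and 0.256% to 0.287% at day 0, with miR-144-3p, miR-451a and miR-223-3p at 0. The neural miRNAs took 1.10% to 1.20% at day 7 and 0.0214% to 0.0260% at day 0. The endothelium miRNAs took 0.0219% to 0.0429% at day 7 and 0.0756% to 0.0809% at day 0, with 1 of 2 called lower on both scales. The endoderm shares overlapped, with 0.0635% to 0.0740% at day 7 and 0.0718% to 0.0730% at day 0. Their summed relative values were higher at day 7 (118 to 174) than at day 0 (94.1 to 108). Across all tested miRNAs, 21.9% were called higher and 28% lower as deposited, and 26.9% and 25.7% in relative values.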

How the data were processed

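Small RNA was sequenced from 14 libraries in the 5 groups analysed, of 17 labelled samples in 6 groups. The values, deposited by the authors, are signal: read numbers of mature miRNAs scaled by 1 factor per library. The table's title names TMM. CASAVA, FastQC, Bowtie, Partek and mm10 are named without settings per the submitters' processing notes, and cutadapt and a length step per the file headers. Whole reads were recovered: 100% of low values (up to 1000 reads) were whole to within 0.01 of a read.

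The 521 of 1033 entries whose mean reached 5 per 1000000 were fitted with limma 3.58.1 (R 4.3.3) on log2(value + pseudocount). The fit had 5 group means, a trended prior and Benjamini-Hochberg adjustment. The pseudocount was 2 per 1000000 of the mean column total on the scale fitted, which was 0.48 for deposited values. Fold changes fitted with a pseudocount understate changes of low miRNAs. The procedure was tested on simulated data. Recovered reads were also fitted with edgeR 4.0.16 and DESeq2 1.42.0. Intervals and the floor of 3 reads per library cover counting error only.

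The text names all members, the 5 miRNAs nearest to miR-29a-3p and to miR-29c-3p, and from each list the 3 most abundant and the 2 with the largest relative change in D3 at day 21 against day 0. Members and lists were chosen with earlier results of these data known.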

Additional observations from a re-analysis of the deposited data

Results flagged for a closer look

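The change of miR-29a-3p from day 0 to day 7 had opposite directions in the lines on the deposited scale. Its log2 change was 1.26 in D3, where both day 7 libraries lay above all day 0 libraries, and -3.57 in B8, where every day 7 library lay below every day 0 library. The difference between the lines was not tested, since the B8 values chose the family. On the relative scale the log2 changes were -0.97 in D3 and -3.37 in B8, both lower at day 7, so the opposite directions were found on the deposited scale and not on the relative one.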

How the results depend on the processing

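Of 300 values under alternative settings, 241 were counted as the same. Tested changes had to keep their direction and side of the threshold, and untested ones to keep direction and stay within the spread. Numbers of calls had to stay within a set fold of the main number. The rise of miR-29a-3p in D3 at day 21 held in all 13 alternatives against day 0 (log2 1.47 to 3.46) and all 13 against day 7 (1.99 to 3.80), beside those leaving out a library (3.06 to 3.58 and 1.80 to 2.34). The change of miR-29b-3p at day 21 against day 7 held in 12 of 12.

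Scaling moved the other values, in the order equal column totals, median-of-ratios factors, totals made equal over miRNAs other than miR-10a and miR-10b, edgeR with TMM and DESeq2. At day 7 against day 0 in D3, miR-29a-3p was -2.33, -0.97, -0.86, -1.14 and -0.94, and miR-29c-3p -0.72, 0.51, 0.61, 0.10 and 0.32. For day 21 against day 0, miR-29c-3p was 0.53, 0.82, 0.68, 0.58 and 0.61, and miR-29b-3p -0.48, -0.15, -0.29, 0.043 and 0.018. For day 21 against day 7, miR-29c-3p was 1.24, 0.31, 0.068, 0.48 and 0.28. In D3 against B8 at day 7, miR-29a-3p was -0.88, -0.23 and -0.23 under the first 3 and miR-29c-3p, 1.78 as deposited, was -0.083, 0.52 and 0.54. Of the calls at day 7 against day 0 in D3, 91.1% were higher as deposited, 57.3% with median-of-ratios factors and 32.1% with equal totals. For day 21 against day 0 these shares were 86.5%, 60.4% and 52.8%, and at day 21 against day 7 they were 20.4%, 60.9% and 94.7%.

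The fitted value of miR-29b-3p at day 7 against day 0 in D3 lost its call at a pseudocount of 10 per 1000000 (-0.60) and with edgeR on deposited factors (-4.19). It gained a call at that pseudocount (0.68) at day 21 against day 0, with edgeR on deposited factors (1.55) and with a prior without trend (1.13, limma adjusted p = 0.0223). A filter at 50 per 1000000 left 251 and 258 called at day 7 and day 21 against day 0, and totals made equal without miR-10a and miR-10b left 134 called at day 21 against day 7. miR-29b-3p and miR-29c-3p could not be tested at that filter. The cause was not tested, apart from the smaller number of miRNAs under the filter.

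Leaving out a library gave, at day 7 against day 0 in D3, 1.01 to 1.52 for miR-29a-3p, -2.06 to -1.62 for miR-29b-3p, 2.03 to 2.90 for miR-29c-3p and 368 to 403 calls. The range at day 21 against day 0 was 0.66 to 1.53 for miR-29b-3p, 1.69 to 2.48 for miR-29c-3p and 361 to 388 calls. The range at day 21 against day 7 was 2.51 to 3.35 for miR-29b-3p, -0.81 to 0.081 for miR-29c-3p (0.081 without D3 day 7 replicate 2) and 110 to 185 calls, with 110 without D3 day 7 replicate 2 and 130 without replicate 3. The lone D3 day 7 library was then assumed to vary like the others. In B8 it gave -1.06 to 0.10 for miR-29c-3p, the latter without B8 day 7 replicate 2.

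The labels do not say whether replicate numbers pair the samples, and so few libraries cannot settle it. In same-numbered D3 libraries of day 21 and day 0, deviations from the group means had correlations of 0.135, 0.042 and 0.019. Not every library correlated best with its own number. A replicate block changed none of 12 D3 results, with miR-29a-3p at 1.24, miR-29b-3p at -1.90, miR-29c-3p at 2.68 and 407 calls at day 7 against day 0, 400 calls at day 21 against day 0 and 207 at day 21 against day 7. Depth limits miR-29b-3p, miR-29c-3p and the 5p arms, with 0 to 20 reads a library. It also limits miR-29a-3p in D3 at day 0, with 11 to 18 reads a library, and in B8 at day 7, with 6 to 18.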
